A study of Homo sapiens with 12 samples.

Results

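The genes described are 6 metallothioneins (MT1X, MT2A, MT1E, MT1F, MT1G and MT1M) and the zinc exporter SLC30A1, measured in MDA-MB-231 cells, a human line from a breast cancer with a mesenchymal character. They were taken as the probe sets whose gene symbol in the deposited table is one of these 7 names alone. That gave 9 of 28869 probe sets, 2 each for MT2A and MT1G and 1 for each of the others. The 7 genes were chosen by their log2 signals in these same samples, by treatment and by order of sample number, so their levels and differences are given as a description, with no test.

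The 12 samples form 4 groups of 3. Cells of the FECH siRNA group received 0.1 mM 5-aminolevulinic acid (5-ALA), the precursor of heme, with 15 nM of a single siRNA against FECH. Its product, ferrochelatase, makes heme in mitochondria by placing iron in protoporphyrin IX. Cells of the control siRNA group received 0.1 mM 5-ALA with 15 nM of the Allstar control siRNA, and those of the 5-ALA only group received 0.1 mM 5-ALA without siRNA. The no treatment group received neither 5-ALA nor siRNA. All groups shared the same RPMI medium with fetal calf serum, and nothing in the labels says that replicates were separate cultures, so a p-value here reflects no more than how these samples vary, which may be technical. In the titles, samples are numbered in 3 sets of 4 (1 to 4, 5 to 8 and 9 to 12), each with 1 sample of every group. These sets are called runs 1, 2 and 3 below, and replicate 1 of each group is in run 1, replicate 2 in run 2 and replicate 3 in run 3. The labels do not say what a run stands for.

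Metallothioneins are small cysteine-rich proteins that bind zinc, copper and cadmium and so buffer the free metal in the cell. SLC30A1, also called ZnT1, carries zinc out across the plasma membrane. The genes of both are known targets of MTF1, a transcription factor that is activated by zinc and binds short metal response elements in their promoters. Metallothionein genes also respond to glucocorticoids and to oxidative stress. Besides iron, ferrochelatase can insert zinc into protoporphyrin.

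The 6 metallothionein genes lie in a cluster of 16 metallothionein genes and pseudogenes that spans 119.1 kb of chromosome 16 (GRCh38.p14, 56565073 to 56684196, RefSeq). SLC30A1 lies on chromosome 1 (211571568 to 211579161). Promoter sequences from RefSeq (GRCh38.p14) were matched by symbol for 3 of the 7 genes, MT1X, MT2A and SLC30A1. They are shown as the members whose promoter could be matched. Each line holds the 250 bases before the transcription start, 5′ to 3′ on the strand of the gene. Capitals mark matches to the core of the metal response element, searched as TGCACNC and TGCGCNC on both strands, none of which overlapped another. The windows are chr16:56682220-56682469 on the plus strand, chr16:56608334-56608583 on the plus strand and chr1:211579162-211579411 on the minus strand.
MT1X: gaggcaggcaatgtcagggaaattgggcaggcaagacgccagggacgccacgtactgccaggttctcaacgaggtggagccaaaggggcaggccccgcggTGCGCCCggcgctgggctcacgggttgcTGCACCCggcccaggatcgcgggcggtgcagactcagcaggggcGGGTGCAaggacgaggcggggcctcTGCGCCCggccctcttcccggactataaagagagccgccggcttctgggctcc
MT2A: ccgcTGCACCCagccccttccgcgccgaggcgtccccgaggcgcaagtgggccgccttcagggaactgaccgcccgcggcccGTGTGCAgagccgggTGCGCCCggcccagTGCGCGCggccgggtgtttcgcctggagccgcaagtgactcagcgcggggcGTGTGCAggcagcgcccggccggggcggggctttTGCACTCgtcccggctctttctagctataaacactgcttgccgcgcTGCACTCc
SLC30A1: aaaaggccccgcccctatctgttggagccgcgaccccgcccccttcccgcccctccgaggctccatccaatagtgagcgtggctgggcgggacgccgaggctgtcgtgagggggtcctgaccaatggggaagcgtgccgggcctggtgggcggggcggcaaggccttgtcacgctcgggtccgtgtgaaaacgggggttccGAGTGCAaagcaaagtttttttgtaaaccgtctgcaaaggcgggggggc

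The MT2A window held 7 matches, the MT1X window 4 and the SLC30A1 window 1. The match of SLC30A1 lies from -49 to -43 relative to the start, on the opposite strand. Of 35116 promoter windows of this length, 24.8% held at least 1 match, 0.37% at least 4 and 0.0313% at least 7. A match describes the letters and is not shown to be a bound site.

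Signals are given on the log2 scale. They cannot be compared in level between probe sets, and fewer cells with a transcript cannot be told apart from less transcript per cell. Metallothionein genes are near-identical copies, so a probe set named for 1 of them may also read its neighbours, and differences between these probe sets are uncertain. The level of 7.29, the median of all probe sets, served as the lower limit for testing, and no detection values were used. Of the 9 probe sets, 8 lay above it on all 12 arrays. MT1M (probe set 7995787) lay below it on all 12, between 5.86 and 6.43, so its signal may be background.

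The median signal per array lay between 7.25 and 7.34. FECH averaged 6.53 ± 0.09 in the FECH siRNA group, 8.55 ± 0.05 in the control siRNA group, 8.50 ± 0.12 with 5-ALA only and 8.49 ± 0.09 with no treatment (SD, n = 3 each); it was lowest in the group labelled FECH siRNA. All 6 markers of MDA-MB-231 listed, among them VIM and CD44, lay above 7.29 on all 12 arrays. Of 11 luminal markers, 6 (KRT8, KRT18, KRT19, GATA3, ERBB2 and EPCAM) lay above it on all 12, and ESR1 and PGR lay below it on all 12. Of 5 blood and immune markers on the array, 3 lay below it on every array, while CD14 lay above it on all 12 and PECAM1 on 11. Of 6 fibroblast markers, 3 (COL1A1, LUM and PDGFRB) lay above it on all 12, and DCN lay below it on all 12. Counted against the other arrays of its group, no treatment replicate 3 had 416 genes more than 0.5 away on the log2 scale and no treatment replicate 2 had 94, against 10 to 115 for the other 10 arrays.

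One array decided most of the spread in these genes. In no treatment replicate 2, every one of the 9 probe sets had its highest signal of the 12 arrays. MT1X (probe set 7995838) read 10.74, 10.55 and 10.57 in the 3 FECH siRNA samples, 10.73, 10.61 and 10.05 in the control siRNA samples, 10.40, 10.15 and 9.96 with 5-ALA only, and 10.38, 12.45 and 9.79 with no treatment. The value of 12.45 stands alone, and the other 11 lie between 9.79 and 10.74. SLC30A1 (probe set 7924092) read 9.26, 9.28 and 8.09 in the FECH siRNA samples, 9.56, 9.63 and 8.52 in the control siRNA samples, 9.45, 9.43 and 8.35 with 5-ALA only, and 9.26, 11.27 and 8.35 with no treatment. Again the untreated sample of run 2 is far above all others, and in every group the sample of run 3 is the lowest. MT1F (probe set 7995825) read 11.99, 12.06 and 12.06 in the FECH siRNA samples, 12.16, 12.19 and 12.00 in the control siRNA samples, 11.66, 11.65 and 11.68 with 5-ALA only, and 11.60, 13.17 and 11.76 with no treatment. Leaving that array aside, the 6 siRNA samples of MT1F all lie above the 5 samples without siRNA.

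**Figure D1:**
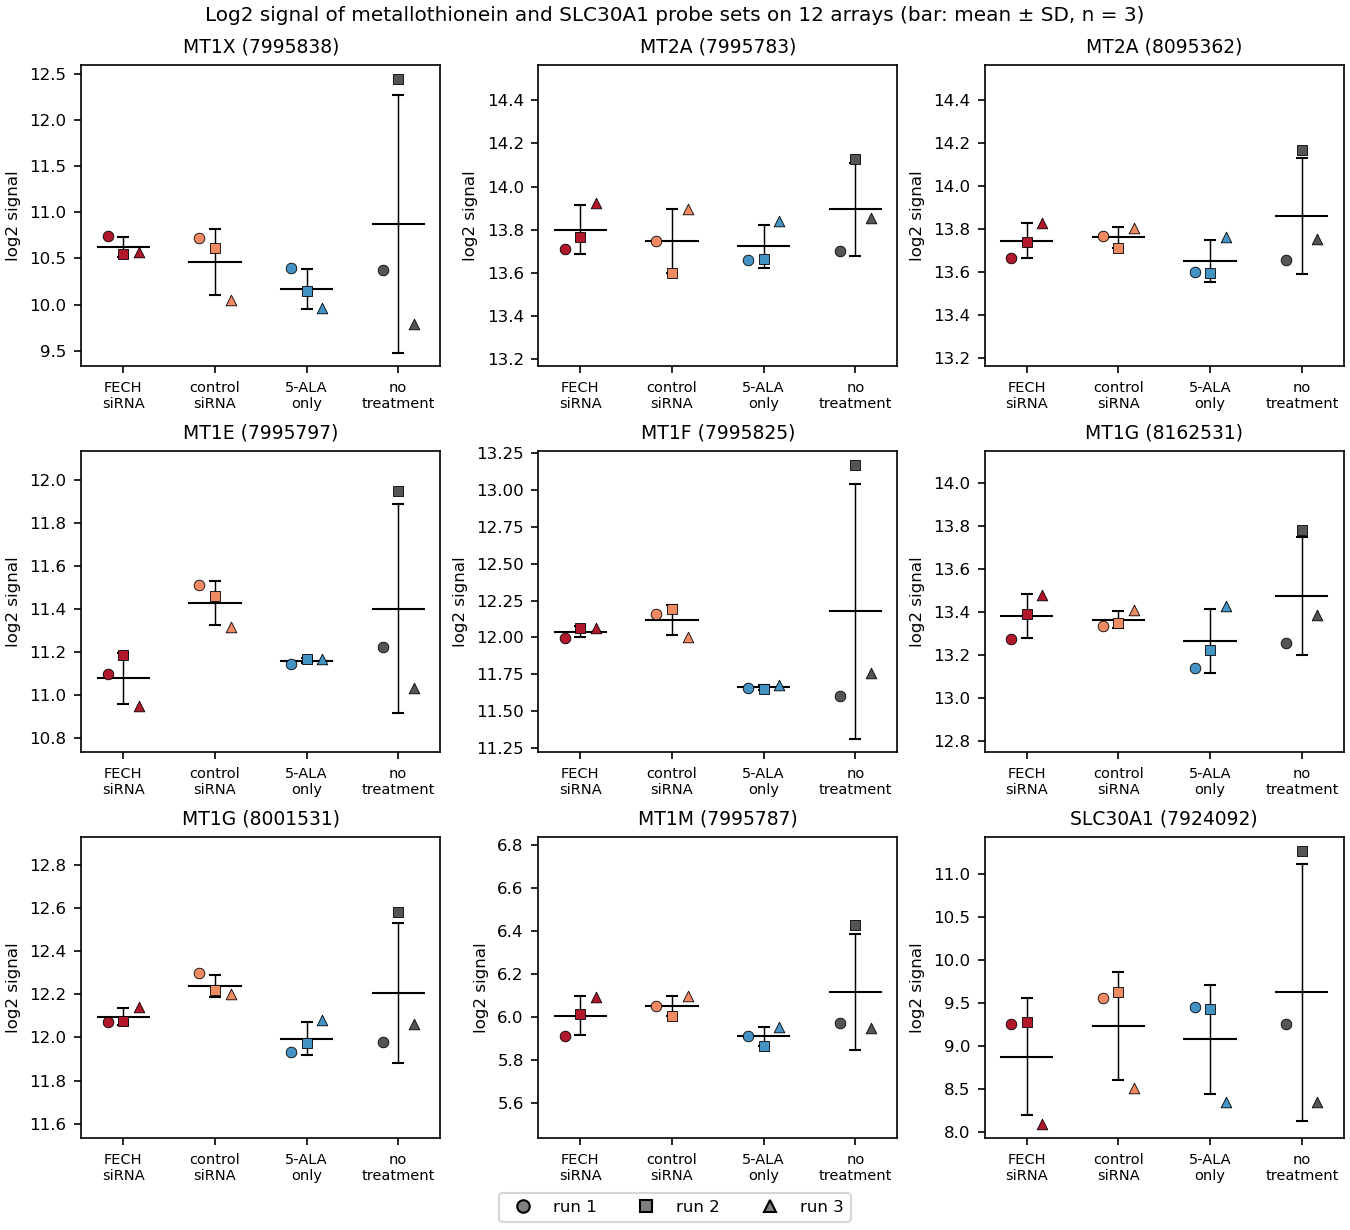
Log2 signal (vertical axes) of the 9 probe sets on 12 arrays, with the groups on the horizontal axes, the run as the symbol, and bars for the mean ± SD (n = 3). The square of the no treatment group lies above all other points in every panel, at 12.45 for MT1X and 11.27 for SLC30A1, and the triangles of SLC30A1 are the lowest point of each group.

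Against the mean of no treatment replicates 1 and 3, replicate 2 was 5.54-fold higher in SLC30A1, 5.14-fold in MT1X, 2.81-fold in MT1F and 1.77-fold in MT1E. For the remaining 5 probe sets the ratio lay between 1.28-fold (MT2A, probe set 7995783) and 1.48-fold (MT1G, probe set 8001531). Replicates 1 and 3 themselves differed by 0.91 in SLC30A1, 0.59 in MT1X, 0.16 in MT1F and 0.19 in MT1E on the log2 scale. Of the 12151 genes tested, SLC30A1 and MT1X had the largest and the second largest excess in this array. Only 50 genes (0.411%) exceeded 0.5 and 6 genes (0.0494%) exceeded 1 on the log2 scale. No treatment replicate 3 was low in some of these genes, and against each of the other untreated arrays 10 genes exceeded 0.5 and 3 exceeded 1. Those 3 were SLC30A1 (2.02 above replicate 1 and 2.93 above replicate 3), MT1X (2.07 and 2.66) and MT1F (1.57 and 1.41). The rest of the 6, chosen after their values were seen, were CYP1A1, a xenobiotic-metabolising oxidase, CHAC1, which breaks down glutathione, and DDIT3, a stress-induced transcription factor. They differed from replicate 1 by -0.28, -0.03 and 0.42, and their excess over the mean came mainly from replicate 3. This array was the highest of the 12 in 346 genes (2.85%).

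The further metallothionein probe sets were also high in this array. Of these 12, 4 carry several symbols. Those with MT1X, MT1M or MT2A among their symbols are not separate from the described genes. The 12 lay 0.17 to 1.25 above the other untreated arrays on the log2 scale, and 11 of the 12 had their highest signal in this array. The exception was MT3, a metallothionein known from the brain, which read 8.43, 8.58 and 8.39 with no treatment and reached 8.61 in the control siRNA group. MTF1 (probe set 7915091) read 9.72, 9.92 and 9.63 with no treatment, 0.24 higher in replicate 2, within its range of 9.61 to 9.97 over all 12 arrays. Among the SLC30 exporters other than SLC30A1 (6 tested), the SLC39 importers (11) and copper handling (14), no gene exceeded 0.5 in this array. Their excesses lay between -0.30 and 0.28. Of all genes tested 0.411% exceeded 0.5, so a count of 0 in lists this small does not set them apart. Among 9 further genes of the cadmium and heavy metal response, EGR1 exceeded 0.5, at 0.94, but it read 10.46, 10.62 and 8.90 with no treatment, so that replicate 2 lay 0.16 above replicate 1. The heme oxygenase HMOX1 stood at 0.14. None of 7 glucocorticoid response genes exceeded 0.5, which again is near the share over all genes. The highest value was 0.41 for TSC22D3, which was 0.04 above replicate 1.

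**Figure D2:**
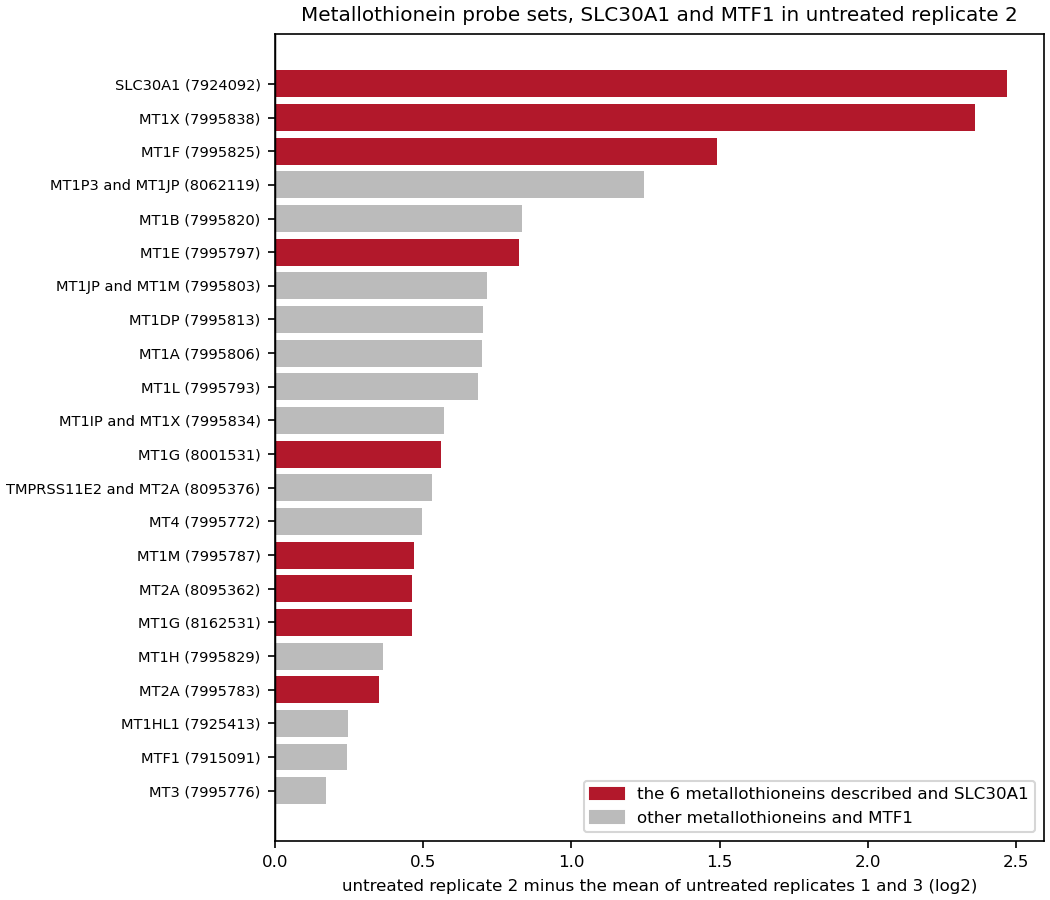
Log2 signal of no treatment replicate 2 minus the mean of no treatment replicates 1 and 3 (horizontal axis), 1 bar for each probe set of a metallothionein, SLC30A1 and MTF1. SLC30A1 at 2.47, MT1X at 2.36 and MT1F at 1.49 have the longest bars, and MT3 at 0.17 the shortest.

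Between runs 1 and 3, SLC30A1 and MT2A differed in opposite directions, MT2A by much less. SLC30A1 was lower in run 3 than in run 1 by 1.17 in the FECH siRNA group, 1.05 in the control siRNA group, 1.10 with 5-ALA only and 0.91 with no treatment, all on the log2 scale, a mean ratio of 2.08 for run 1 over run 3. Its samples of runs 1 and 2 differed by at most 0.06 in the 3 groups given 5-ALA, and no sample of run 3 in any group reached the lowest sample of the other runs. Run 3 was the lowest run in all 4 groups in 6.62% of all genes tested, but only 3 genes (0.0247%) lay more than 0.5 below run 1 in each group. SLC30A1 was the one with the largest mean gap, and the others, chosen after their values were seen, were F2RL2, a thrombin receptor, and the small Cajal body RNA SCARNA9.

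MT1X was also lower in run 3 than in run 1 in every group, by 0.17 with FECH siRNA, 0.68 with control siRNA, 0.44 with 5-ALA only and 0.59 with no treatment. MT2A (probe set 7995783) read 13.71, 13.77 and 13.92 with FECH siRNA, 13.75, 13.60 and 13.90 with control siRNA, 13.66, 13.66 and 13.84 with 5-ALA only, and 13.70, 14.13 and 13.85 with no treatment. Here run 3 was above run 1 in 4 of 4 groups, by 0.15 to 0.22, and in the other probe set, 8095362, by 0.04 to 0.17. Against run 2, run 3 was higher in the groups given 5-ALA. With no treatment it differed from run 2 by -0.28 (7995783) and -0.41 (8095362). The share of all genes with run 3 above run 1 in every group was not counted, so this direction has no background beside it. MT1G (probe set 8162531) was likewise higher in run 3 in 4 of 4 groups, by 0.07 to 0.29. Its other probe set, 8001531, did not follow in the control siRNA group, with differences between -0.10 and 0.15. MT1E ran from -0.19 to 0.02, MT1F from -0.15 to 0.16 and MT1M from -0.02 to 0.18. MTF1 differed by -0.09 to 0.11 between these runs.

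**Figure D3:**
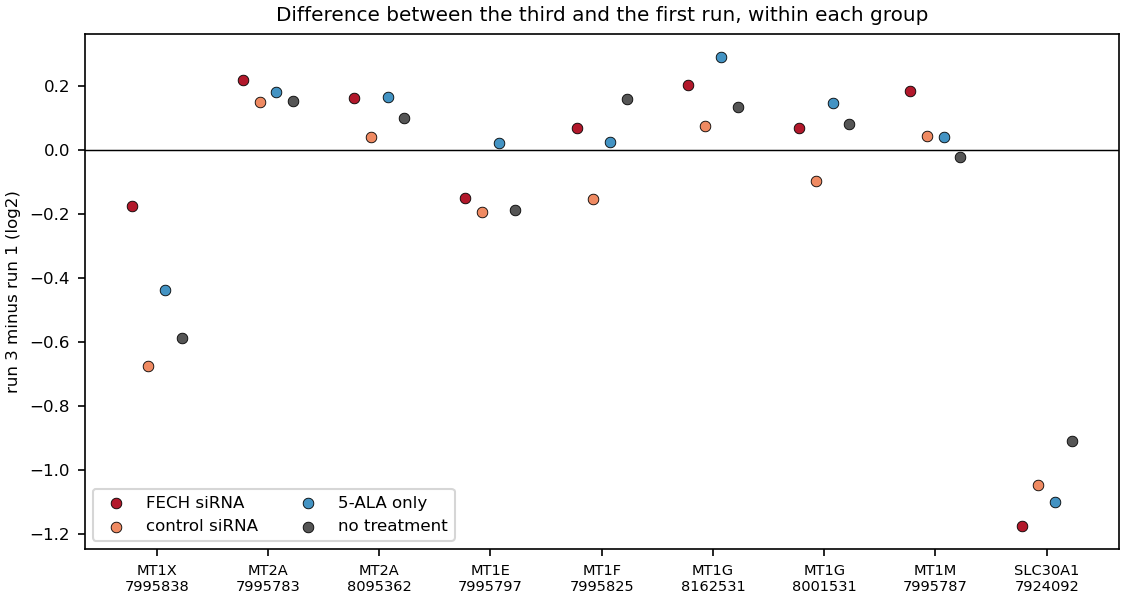
Log2 signal in run 3 minus that in run 1 (vertical axis) for the 9 probe sets (horizontal axis), 1 point for each group. All 4 points of SLC30A1 lie between -1.17 and -0.91 and all 4 of MT1X below 0, while those of both MT2A probe sets lie above 0.

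Over all 12 arrays, Pearson's r between SLC30A1 and the 8 metallothionein probe sets lay between 0.16 and 0.85, and between pairs of metallothionein probe sets between 0.40 and 0.98. Without no treatment replicate 2 the first range became -0.91 to 0.60 over 11 arrays, with the lowest value for MT2A (7995783) and the highest for MT1E, and the second -0.44 to 0.94. These arrays share groups and runs, so the coefficients describe the arrays and are given with no p. The 8 genes most like the mean of the 9 probe sets over the 12 arrays, of those tested, were led by 3 metallothionein genes or pseudogenes, MT1L (r = 0.96, Spearman's rho 0.86), MT1B (0.94, rho 0.69) and MT1DP (0.90, rho 0.51). PCIF1 (0.79), SPSB3 (0.78), TNNT3 (0.74), DKFZP547L112 (0.74) and MT1H (0.71) followed. After the 2 arrays farthest from the median were left out, no treatment replicate 2 and control siRNA replicate 1, r was 0.79 for MT1L, 0.61 for MT1B and 0.34 for MT1DP, and between -0.07 and 0.47 for the other 5, so most of this likeness rests on those arrays. With the group means removed, MT1L (0.95), TAFAZZIN (0.95), MT1B (0.94), MT1DP (0.92), DTX3L (0.90), PCIF1 (0.88), DCAF15 (0.88) and INPP5E (0.86) came first. Spearman's rho was lower for the metallothioneins, at 0.36 for MT1L, 0.48 for MT1B and 0.59 for MT1DP, and 0.45 for INPP5E, while DCAF15 had 0.93, PCIF1 0.84, TAFAZZIN 0.78 and DTX3L 0.73. Without the 2 arrays farthest from the median, r lay between 0.65 for INPP5E and 0.89 for MT1L. The group means were taken with those 2 arrays included, so these values cannot show a likeness apart from no treatment replicate 2.

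FECH siRNA was set against control siRNA to see what follows when FECH is targeted under 5-ALA. MT1E (probe set 7995797) was lower with FECH siRNA, at 11.10, 11.18 and 10.95, against 11.51, 11.46 and 11.32 with control siRNA. The 2 groups do not overlap, and the difference of means was -0.35 on the log2 scale, or -0.41, -0.27 and -0.37 in runs 1, 2 and 3. SLC30A1 averaged 8.88 ± 0.68 with FECH siRNA and 9.24 ± 0.62 with control siRNA (SD, n = 3 each). The groups overlap because of the gap between runs, but within runs 1, 2 and 3 the differences were -0.30, -0.34 and -0.43. MT1G (probe set 8001531) was the other probe set without overlap, at 12.07, 12.08 and 12.14 with FECH siRNA, against 12.30, 12.22 and 12.20 with control siRNA. Its partner 8162531 averaged 13.38 ± 0.10 with FECH siRNA and 13.36 ± 0.04 with control siRNA (SD, n = 3 each), so the probe sets of MT1G differ.

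MT1X averaged 10.62 ± 0.11 with FECH siRNA and 10.46 ± 0.36 with control siRNA (SD, n = 3 each), with 0.02, -0.06 and 0.52 in the 3 runs. MT2A (7995783) averaged 13.80 ± 0.11 with FECH siRNA and 13.75 ± 0.15 with control siRNA, and MT1F 12.04 ± 0.04 with FECH siRNA and 12.12 ± 0.10 with control siRNA (SD, n = 3 each). Each difference was smaller than the larger of the 2 SDs. The median difference over the 9 probe sets was -0.05, where that of all genes was 0.00 to 2 decimals. Of the 6 described genes above the limit of 7.29, by their brightest probe set, 1 did not overlap and was lower (24.1% of all genes) and 0 were higher (27.1%). The summed linear signal of the 11 luminal markers ran from 6521 to 6629 with FECH siRNA and from 8828 to 9260 with control siRNA, and that of the 5 blood and immune markers, of which PTPRC, CD3E and HBB stayed below 7.29, from 1150 to 1206 with FECH siRNA and from 2115 to 2146 with control siRNA. Their part in these differences was not tested.

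The comparison of 5-ALA only with no treatment asks what the heme precursor does on its own, and its values for these genes turn on a single array. All 9 probe sets had a lower mean with 5-ALA, with a median difference of -0.21 on the log2 scale. In run 2 the median difference was -0.61, against -0.05 in run 1 and 0.01 in run 3. MT1X averaged 10.17 ± 0.22 with 5-ALA only and 10.87 ± 1.40 with no treatment (SD, n = 3 each), a difference of -0.70 that became 0.09 without no treatment replicate 2. For SLC30A1 the means were 9.08 ± 0.63 with 5-ALA only and 9.63 ± 1.50 with no treatment (SD, n = 3 each), and -0.55 became 0.28. MT1F averaged 11.66 ± 0.02 with 5-ALA only and 12.18 ± 0.86 with no treatment (SD, n = 3 each), and -0.52 became -0.02. Without that array the median difference was -0.03, so the size of the differences rests on it. MT1X, MT1E and SLC30A1 then had a higher mean with 5-ALA, and the other probe sets stayed lower, by at most 0.06. In these means no treatment held only runs 1 and 3, and 5-ALA only held all 3 runs, so the gap between runs enters. Within runs 1 and 3, SLC30A1 differed by 0.19 and 0.00. In 0 of the 9 probe sets were the groups apart. No treatment replicate 2 was the highest array in each of them, so 5-ALA only could not lie wholly above no treatment. The 3.6% of all genes that were higher without overlap is therefore no measure for these genes. Of the 6 described genes tested, 0 were lower without overlap, against 2.77% of all genes. With so small a share, this count does not set them apart.

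Each siRNA group was also set against 5-ALA only, which has no transfection. Both use the same 3 samples of 5-ALA only, so their values are given side by side. MT1F was higher with each siRNA. It averaged 12.04 ± 0.04 with FECH siRNA and 12.12 ± 0.10 with control siRNA, against 11.66 ± 0.02 with 5-ALA only (SD, n = 3 each), 1.30-fold and 1.37-fold higher. In runs 1, 2 and 3 the differences were 0.34, 0.41 and 0.38 with FECH siRNA and 0.50, 0.55 and 0.32 with control siRNA. Neither siRNA group overlaps with 5-ALA only.

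MT1X averaged 10.62 ± 0.11 with FECH siRNA and 10.46 ± 0.36 with control siRNA, against 10.17 ± 0.22 with 5-ALA only (SD, n = 3 each). It was higher in 3 of 3 runs for each siRNA, by 0.34, 0.40 and 0.61 for FECH siRNA and 0.32, 0.46 and 0.09 for control siRNA, and only the FECH siRNA group was clear of overlap. MT1E went apart between the siRNAs, with 11.08 ± 0.12 with FECH siRNA and 11.43 ± 0.10 with control siRNA, against 11.16 ± 0.01 with 5-ALA only (SD, n = 3 each). The control siRNA samples all lay above 5-ALA only, and the FECH siRNA samples overlapped it. SLC30A1 also differed in sign, at -0.19, -0.15 and -0.26 in runs 1, 2 and 3 for FECH siRNA and 0.11, 0.19 and 0.17 for control siRNA, with overlap in each case. MT2A (7995783) differed by 0.08 with FECH siRNA and 0.03 with control siRNA, less than its spread of 0.10 with 5-ALA only, and the second of these turned to -0.02 with each array centred on its median. MT1G (8001531) and MT1M differed from 5-ALA only by 0.10 each with FECH siRNA, with overlap, and by 0.24 and 0.14 with control siRNA, without overlap. The other MT1G probe set, 8162531, differed by 0.12 with FECH siRNA and 0.10 with control siRNA, with overlap in each case. The other MT2A probe set, 8095362, differed by 0.09 with FECH siRNA and 0.11 with control siRNA, with overlap in each case. Its SD with 5-ALA only was 0.10.

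**Figure D4:**
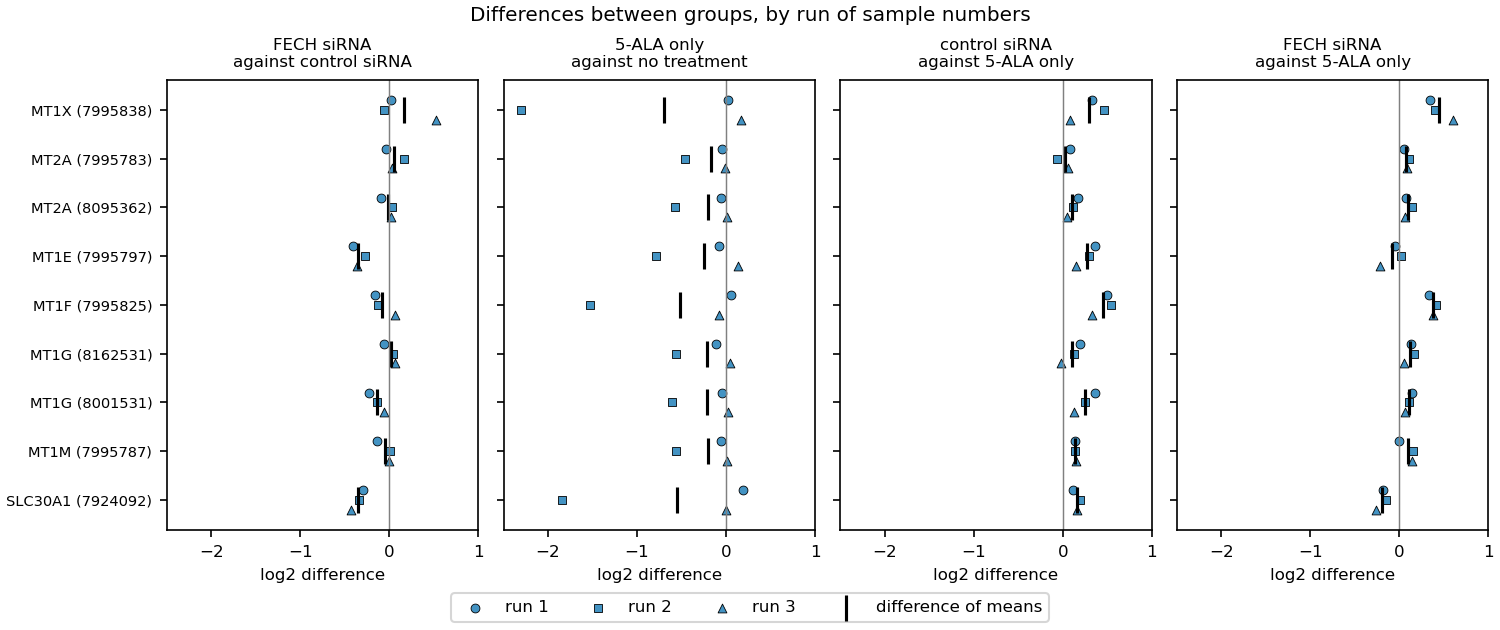
Log2 difference between groups (horizontal axes) for the 9 probe sets, 1 panel for each comparison, with symbols for the difference within each run and a bar for the difference of means. In the panel of 5-ALA only against no treatment, run 2 stands far to the left, at -2.30 for MT1X, and runs 1 and 3 lie between -0.11 and 0.19.

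With FECH siRNA against 5-ALA only, 7 of 9 probe sets had a higher mean, with a median difference of 0.10, and of the same 6 genes 2 did not overlap and were higher (27.0% of all genes) and 0 were lower (23.0%). With control siRNA against 5-ALA only, 9 of 9 had a higher mean, with a median of 0.16, and of the 6 genes 2 did not overlap and were higher (13.6% of all genes) and 0 were lower (13.5%).

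The other genes of zinc and copper handling were taken from 5 lists by family or role: the remaining metallothioneins, the other SLC30 exporters, the SLC39 importers, zinc-responsive regulators and copper handling. Of their 55 symbols 50 have a probe set of their own and 40 were tested. With FECH siRNA against control siRNA, 2 rose and 9 fell, or 27.5% of the 40, against 38.3% of all genes, so the lists as a whole do not stand out. None of the 7 remaining metallothioneins passed limma, and MT3 (-0.21, adjusted p = 0.080) had an unadjusted p of 0.034. The variance in this fit came from all arrays, including no treatment replicate 2, which is in neither siRNA group. In that array these 7 genes lay 0.17 (MT3) to 0.83 (MT1B) above the mean of the other untreated arrays. Such a gap adds to the variance, so the lack of a pass does not show that these genes were unchanged.

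SLC39A6, SLC39A9, SLC39A10, SLC30A7 and SLC30A9 moved by much more than the described metallothioneins did, but they were picked by the test. Over the genes tested, the median log2 difference was -0.16 for the other SLC30 exporters and 0.08 for the SLC39 importers. SLC39A6, which imports zinc across the plasma membrane, read 8.47, 8.29 and 8.32 with FECH siRNA and 10.14, 10.00 and 9.97 with control siRNA. The groups lie far apart, 3.19-fold lower with FECH siRNA (limma log2 difference -1.67, SE 0.07, adjusted p = 2.6e-09). SLC39A9, another importer, averaged 9.48 ± 0.11 with FECH siRNA and 10.79 ± 0.12 with control siRNA (SD, n = 3 each), 2.49-fold lower (limma adjusted p = 6.7e-07). SLC39A10, an importer of the same branch as SLC39A6, was 1.71-fold lower (limma adjusted p = 1.7e-04). Of the exporters that load the secretory pathway, SLC30A7 was 1.95-fold lower (limma adjusted p = 3.2e-08), and SLC30A9, which acts in mitochondria, was 1.74-fold lower (limma adjusted p = 5.2e-06). SLC39A1 rose, 1.14-fold (limma adjusted p = 0.0226), a call lost in 4 of 15 alternatives, with an adjusted p of up to 0.083. With the runs as a block SLC39A8 (adjusted p = 0.031) rose and SLC30A4 (0.011) fell as well.

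Among copper genes the chaperone ATOX1 rose by 0.49 on the log2 scale, and the mitochondrial copper chaperone SCO1 (-0.63), the metalloreductase STEAP3 (-0.36), CCS, which loads copper into superoxide dismutase (-0.25), and COX17 (-0.22) fell. Their limma adjusted p lay between 1.0e-04 and 0.035. MTF1 was at 9.67 ± 0.10 with FECH siRNA and 9.81 ± 0.05 with control siRNA (SD, n = 3 each) and did not pass (limma adjusted p = 0.226).

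Of the same 40 genes, 9 rose and 9 fell with FECH siRNA against 5-ALA only, where 37.0% of all genes passed, with the 5 transporters above among those that fell, by 1.06 (SLC30A7) to 1.57 (SLC39A6) on the log2 scale. The others that fell were SLC30A5, SCO1, STEAP2 and STEAP3, and those that rose were SLC39A1, SLC39A7, SLC39A8, SLC39A13, the zinc-sensing receptor GPR39, ATOX1, COMMD1 and the copper transporters SLC31A1 and SLC31A2. MTF1 differed by -0.21 (limma adjusted p = 0.054, and 0.0079 with the runs as a block). With control siRNA against 5-ALA only, SLC31A2 rose by 0.48 (limma adjusted p = 0.0071) and SLC39A10 fell by 0.48 (limma adjusted p = 0.0285), 2 of 40 genes, where 6.2% of all genes passed, or 9 with the runs as a block, where 13.6% passed. With 5-ALA only against no treatment 0 of 40 passed limma, where 0.0165% of all genes passed, and 2 had an unadjusted p below 0.05, with the lowest for MT3 (0.027, difference -0.22).

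**Figure D5:**
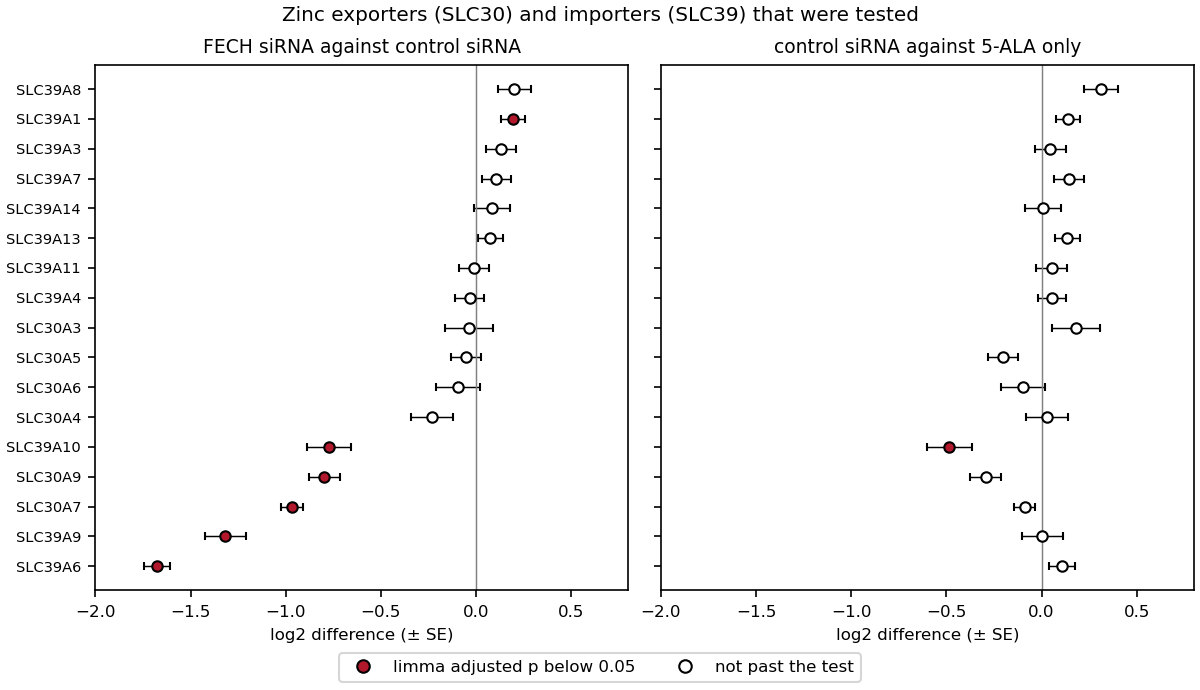
Log2 difference ± SE (horizontal axes) of the 6 SLC30 exporters and 11 SLC39 importers tested, other than SLC30A1, for FECH siRNA against control siRNA and control siRNA against 5-ALA only, filled where the limma adjusted p is below 0.05. SLC39A6, SLC39A9, SLC30A7, SLC30A9 and SLC39A10 lie lowest in the first panel, from -1.67 to -0.77, and in the second SLC39A10 is the filled point.

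Of 9 further genes of the cadmium and heavy metal response, 4 rose and 3 fell with FECH siRNA against control siRNA, or 77.8%, against 38.3% of all genes, while the described metallothioneins differed by -0.35 to 0.16. EGR1, an immediate early transcription factor, rose by 2.03, and the stress-induced transcription factor ATF3 by 0.73. HMOX1 fell by 1.67, and GCLM, part of the glutathione-making enzyme glutamate-cysteine ligase, by 0.54. With 5-ALA only against no treatment HMOX1 rose by 2.01 (limma adjusted p = 7.9e-06), the 1 gene of the 9 to pass, where 0.0165% of all genes passed. In no treatment replicate 2 HMOX1 lay 0.14 above the other untreated samples. Of 7 glucocorticoid response genes, DUSP1, a phosphatase of MAP kinases, rose by 1.34 and KLF9 by 0.41 with FECH siRNA against control siRNA, and PER1 fell by 0.22, or 42.9% of the 7, against 38.3% of all genes. With FECH siRNA against 5-ALA only, EGR1 (1.18) and ATF3 (0.70) rose, and 3 of the 9 fell, among them HMOX1 (-2.03) and GCLM (-0.82). That was 55.6% of the 9, against 37.0% of all genes. DUSP1 rose by 1.31 as the only glucocorticoid gene of the 7 to pass, or 14.3%. With control siRNA against 5-ALA only, the chaperone DNAJB1 (-0.40) and the thioredoxin reductase TXNRD1 (-0.32) fell, 22.2% of the 9, against 6.2% of all genes. None of the 7 glucocorticoid genes passed there. The rise of KLF9 with FECH siRNA against control siRNA did not pass with the runs as a block (adjusted p = 0.053).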

How the data were processed

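Total RNA of 12 samples was labelled with biotin and hybridised to arrays. The deposited signals are linear intensity values, made by the authors with RMA in the oligo package, per the submitters' processing notes. For tool versions and the genome build, nothing is stated in the labels used here. The signals ran from 21.0 to 23641. Here log2 was taken (pseudocount 0), with no further normalization. In the deposited files, 12 further columns of single-sample values, whose names are not those of the sample titles, were not used. The genes described and all lists were chosen with earlier results of these data known.

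Of 28869 probe sets, 19937 carry 1 symbol. Symbols were updated by Entrez gene number through RefSeq for 19309 of these. Genes above 7.29 on at least 3 of 12 arrays were tested, with the probe set of highest mean for each symbol, which left 12151. Among the 7 genes described, MT1M was below this limit. All 12 arrays entered a limma fit with a mean for each group (limma 3.58.1 in R 4.3.3), followed by eBayes, with Benjamini-Hochberg adjustment over all genes and a two-sided threshold of 0.05. The fit was tested on simulated data. Other steps used Python 3.11.15 with pandas 2.3.3. Named are the 7 genes, each zinc or copper gene past the test or else that with the lowest p, MTF1, up to 4 genes of the metal and glucocorticoid lists, and the 8 genes most like the mean profile. The number of arrays limits precision.

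The sample numbers pair the samples in runs: with group means removed, samples of different groups correlated at 0.207 to 0.539 within a run and at most 0.154 between runs, and 12 of 12 had their best partner in their own run. Alternatives were other filters, centring, cyclic loess, the runs as a block, fits of 2 groups, trended and robust variance, each sample left out and the series value table. Leaving out no treatment replicate 2 everywhere was added after seeing the data.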

Additional observations from a re-analysis of the deposited data

How the results depend on the processing

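The number of zinc and copper genes past the limma test, of 40, was 11 for FECH siRNA against control siRNA (9 to 12 with 1 sample left out, 14 with the replicate block), 18 for FECH siRNA against 5-ALA only (13 to 18, 22 with the replicate block) and 0 for 5-ALA only against no treatment under every alternative run. For control siRNA against 5-ALA only it was 2, and 9 with the replicate block, 8 with the replicate block and without no treatment replicate 2, 4 with a filter at the 70th percentile, 4 with trended and robust variance, and 1 to 2 with 1 sample left out (1 without 5-ALA only replicate 1, 5-ALA only replicate 2 or control siRNA replicate 3). The cause was not tested. The median difference over the 9 probe sets for control siRNA against 5-ALA only, 0.16 on the log2 scale, lay between 0.14 and 0.26 with 1 sample left out, highest without control siRNA replicate 3. For FECH siRNA against control siRNA it was -0.05 (-0.06 to 0.00), for FECH siRNA against 5-ALA only 0.10 (0.07 to 0.14) and for 5-ALA only against no treatment -0.21 (-0.33 to -0.03, the last without no treatment replicate 2). Centring each array on its median, cyclic loess, the series value table and leaving out MT1M moved these 4 medians by less than the spread between replicates. In 288 of 288 recalculations the difference of a single probe set moved by less than 1 SD, but that SD holds the gap between runs and no treatment replicate 2. Without detection values, the signal of MT1M over background is unknown.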
